A study of Mus musculus with 12 samples.

Results

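The interstitial collagens of types I, III, V and VI were followed in the glomerulus-enriched transcriptome of the mouse kidney by the 9 genes that encode their α chains. Members were chosen by gene symbol (Col1a1, Col1a2, Col3a1, Col5a1, Col5a2, Col5a3, Col6a1, Col6a2 and Col6a3), a rule that uses no expression value, though earlier results of these data were known when it was set. They are 9 of the 26264 symbols in the count tables, and all 9 passed the filter on low counts among 17002 tested genes. The study compared 2 substrains of the albino BALB/c mouse, BALB/cAjcl (Ajcl) and BALB/cByJcl (ByJcl), to ask how they differ early in adriamycin (ADR) nephropathy. ADR, or doxorubicin, is an anthracycline that injures podocytes, the epithelial cells of the glomerular filter, in susceptible mice. All animals were males from one supplier, obtained at 8 weeks of age. The 4 groups of 3 libraries each were Ajcl untreated, ByJcl untreated, Ajcl at Day 5 after 1 intravenous dose of ADR at 10 mg/kg, and ByJcl at Day 5 after the same dose. Day 5 mice were thus compared with baseline mice that the labels call untreated. The protocol also mentions control mice given saline, but no library carries that label. The labels do not say whether a library is 1 animal, so p-values measure the spread between these libraries.

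Collagens I, III and V are fibrillar collagens, whose chains wind into a triple helix that packs into banded fibrils outside the cell. Collagen I is usually built of paired α1 chains and a single α2 chain, collagen III of α1 chains alone, and collagen V, which mixes its 3 chains in several ways, is known for starting fibrils and limiting their width. Collagen VI forms beaded microfilaments around cells, and together these types make up the interstitial matrix that accumulates in scarred kidneys, whereas the glomerular basement membrane is built mainly of collagen IV.

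Total counts per library lay between 42198416 and 54687045, and whether depth or the number of libraries limited the precision was not tested. Each ByJcl baseline library was deeper than each Ajcl baseline library. Ajcl Day 5 replicate 1, which the study's methods leave out for reduced glomerular purity, had summed tubular marker levels above all other libraries, with 3951 CPM over 8 proximal markers and 2044 CPM over 8 distal markers. CPM are counts per 1000000 counts of a library, scaled by the TMM method of edgeR. This library was left out of the fit and of the means and ranges, and its member values are given beside the others. Tubular markers were lower in ByJcl than in Ajcl at both times for 8 of 8 proximal and 8 of 8 distal genes, with none called in either comparison. In the mean over times Calb1, a distal marker, was called lower (log2FC -3.21, adjusted p = 0.0391, edgeR, named after its values were seen), 7 of 8 distal genes had an unadjusted p below 0.05, and the part of this in the collagen values was not tested. Podocyte and glomerular endothelial markers held the largest sums of the marker lists in each group, as the label glomerulus-enriched states. Baseline and Day 5 counts came in separate tables, and a difference in their handling cannot be told apart from ADR.

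The members lie on 6 chromosomes of GRCm39 (GENCODE vM39). Col1a1 is on chromosome 11 from 94827050 to 94843868 and Col1a2 on chromosome 6 from 4504814 to 4541555. Col3a1 (chromosome 1 from 45350698 to 45395840) and Col5a2 (chromosome 1 from 45412554 to 45542442) lie 16714 bases apart on opposite strands, and Col6a3 is on the same chromosome from 90693645 to 90771780. Col5a1 is on chromosome 2 from 27776397 to 27929526 and Col5a3 on chromosome 9 from 20681337 to 20726418. Col6a1 (76543440 to 76562283) and Col6a2 (76429660 to 76459549) share a strand of chromosome 10 with 83891 bases between them. Non-coding genes on the opposite strand overlap Col1a2, Col3a1, Col5a1 and Col5a3. The libraries were strand-specific but the strand setting of the counting is not given in the sources used here, so reads of these genes and their antisense partners could not be told apart.

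Promoter sequences are shown for Col1a2 and Col5a3, the members with the largest fall and the largest rise after ADR, so that the DNA before both start sites can be read beside their values. RefSeq's table of promoters (GRCm38.p6) held 7 of the 9 members, and its windows were placed on GRCm39 by exact match of the 250 bases before the start. The stretch printed is the part of each window that lies in no annotated exon of its gene, at chr6:4505370-4505492 on the plus strand for Col1a2 (123 bases, within an intron of longer Col1a2 transcripts) and chr9:20726419-20726613 on the minus strand for Col5a3 (195 bases). Capitals mark a GC box (GGGCGG) or a CCAAT box (CCAAT) on either strand, and both read 5′ to 3′ in the direction of the gene.
Col1a2: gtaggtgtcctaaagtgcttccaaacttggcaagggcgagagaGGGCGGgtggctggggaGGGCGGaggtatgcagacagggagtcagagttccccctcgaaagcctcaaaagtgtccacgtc
Col5a3: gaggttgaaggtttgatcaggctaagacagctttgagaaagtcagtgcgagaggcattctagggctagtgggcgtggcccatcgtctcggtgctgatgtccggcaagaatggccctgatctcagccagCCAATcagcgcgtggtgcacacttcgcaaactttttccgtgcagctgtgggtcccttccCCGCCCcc
The whole windows each held 2 GC boxes and 1 CCAAT box and no TATA box (TATAAA). Of all 32851 windows of that length, 32.7% held a GC box, 33.8% a CCAAT box and 12.4% a TATA box. Both windows held the same kinds of motif, and the share of all windows that hold both kinds was not counted.

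Per kilobase of exon, the summed chain transcript at baseline was highest for collagen I among the 4 types, and this came almost wholly from Col1a2. Col1a1 averaged 1.98 CPM per kb in Ajcl and 2.38 CPM per kb in ByJcl, below the sums of collagen V and VI. These sums rank transcripts and not amounts of collagen. Exon length here is the union of annotated exons, so levels per kilobase depend on the annotation. Summed over a type's chains, collagen I stood at 36.8 ± 7.18 CPM per kb (SD, n = 3) for Ajcl and 39.0 ± 3.28 CPM per kb (SD, n = 3) for ByJcl at baseline. Collagen V stood at 8.28 ± 0.32 and 8.26 ± 1.33 CPM per kb, collagen VI at 6.78 ± 0.756 and 9.97 ± 2.08 CPM per kb, and Col3a1 at 0.480 ± 0.092 and 0.364 ± 0.0922 CPM per kb (SD, n = 3 each). At Day 5 collagen I was down to 16.9 ± 4.0 CPM per kb (SD, n = 2) for Ajcl and 10.1 ± 3.11 CPM per kb (SD, n = 3) for ByJcl. The collagen V sum reached 16.9 ± 1.09 CPM per kb (SD, n = 3) in ByJcl, above the collagen I sum in the same group, while Ajcl was at 9.41 ± 2.14 CPM per kb (SD, n = 2). The left-out Ajcl Day 5 replicate 1 was lower than the fitted Ajcl Day 5 libraries in each sum, with 13.3 CPM per kb of collagen I, 6.32 of collagen V, 4.33 of collagen VI and 24.4 over all 9 members. The sum over the 9 members was lower at Day 5, from 52.4 ± 8.05 to 34.4 ± 1.29 CPM per kb in Ajcl (SD, n = 3 and 2) and from 57.6 ± 4.58 to 35.1 ± 6.82 CPM per kb in ByJcl (SD, n = 3 in both). The times did not overlap in either substrain, and Col1a2 carried this fall. Without Col1a2 the sum of the other 8 members was 17.5 ± 1.34 CPM per kb at baseline and 18.8 ± 2.76 CPM per kb at Day 5 in Ajcl (SD, n = 3 and 2), and 20.98 ± 3.33 and 27.0 ± 4.24 CPM per kb in ByJcl (SD, n = 3 in both), and the ranges of the times overlapped in both substrains.

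**Figure D1:**
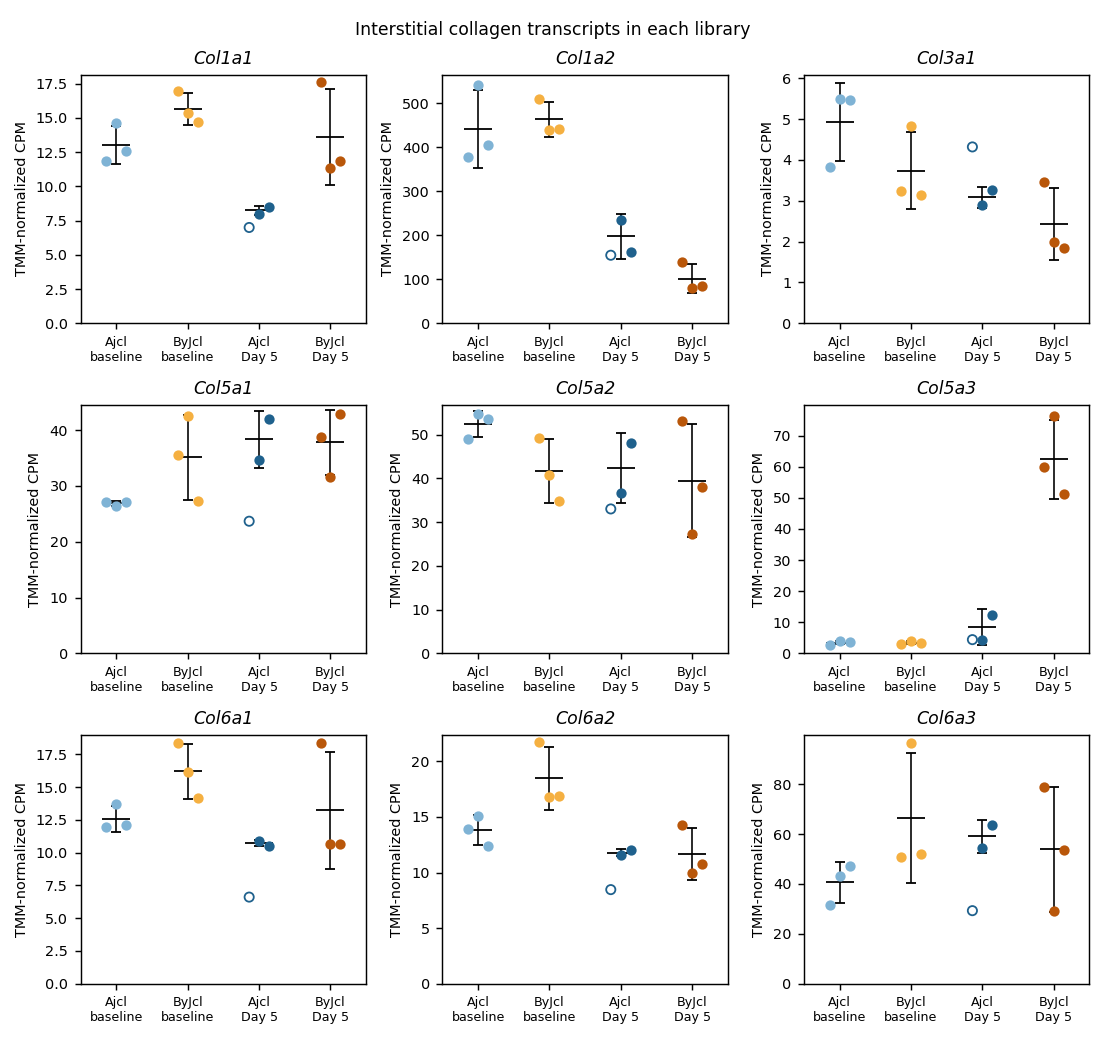
TMM-normalized CPM of the 9 members (y axes, each from 0) in each library of the 4 groups (x axes), with bars for the mean and SD of the fitted libraries and an open circle for Ajcl Day 5 replicate 1, which enters neither. Col1a2 falls from above 377 CPM in each baseline library to 80.0 to 139 CPM in ByJcl at Day 5, Col5a3 rises from at most 4.01 to 51.2 to 76.2 CPM there, and the other panels overlap more.

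Col1a2, the α2 chain of collagen I, lost the most transcript. It was measured in Ajcl baseline libraries at 377, 542 and 404 CPM and in ByJcl baseline libraries at 508, 439 and 442 CPM. At Day 5 it was 155, 234 and 161 CPM in Ajcl (replicate 1, left out, first) and 139, 80.0 and 85.8 CPM in ByJcl. Each Day 5 library was thus below each baseline library, the substrains overlapped at baseline, and at Day 5 each ByJcl library was below each Ajcl library. Of all genes, 25.6% did not overlap between the fitted times in Ajcl and 33.6% in ByJcl. Between substrains at Day 5 it was 32.3%, each share in either direction. By level it stood above 98.5% of tested genes at Ajcl baseline and above 85.3% in ByJcl at Day 5. The fall was 4.46-fold in ByJcl (log2FC -2.16, SE 0.24, adjusted p = 0.0012, quasi-likelihood test of edgeR, adjusted by Benjamini-Hochberg). In Ajcl it was 2.22-fold and did not pass (log2FC -1.15, SE 0.27, adjusted p = 0.136, edgeR), although DESeq2 called it (adjusted p = 0.00141) and so did edgeR without ByJcl Day 5 replicate 1 (adjusted p = 0.0393). The Day 5 difference between substrains (log2FC -0.92, SE 0.25, adjusted p = 0.168, edgeR) did not pass either and passed with DESeq2 (adjusted p = 0.0203).

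Col1a1, the α1 chain that pairs with it, was called in no comparison by edgeR, and by DESeq2 between substrains at Day 5 and in the mean over times. Its levels were 11.9, 14.6 and 12.6 CPM in Ajcl and 16.9, 15.4 and 14.7 CPM in ByJcl at baseline. At Day 5 they were 7.00, 8.01 and 8.48 CPM in Ajcl (replicate 1 first) and 17.6, 11.3 and 11.9 CPM in ByJcl. ByJcl lay above Ajcl with no overlap at both times, and within ByJcl the times overlapped. Of all genes, 14.5% did not overlap between substrains at baseline and 32.3% at Day 5, in either direction. The difference at Day 5 was 1.69-fold (log2FC 0.75, SE 0.22, adjusted p = 0.184, edgeR; DESeq2 adjusted p = 0.0283) and at baseline 1.22-fold (log2FC 0.29, adjusted p = 0.663, edgeR). Without ByJcl Day 5 replicate 1 the Day 5 log2FC was 0.50. Against baseline, log2FC was -0.64 (SE 0.21, adjusted p = 0.31, edgeR) in Ajcl and -0.17 (SE 0.19, adjusted p = 0.607, edgeR) in ByJcl. The ByJcl value ran from -0.42 to -0.05 without single libraries.

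The balance of both collagen I chains shifted between times, by far more in ByJcl than in Ajcl. At baseline the libraries held 28.6 to 37.1 counts of Col1a2 for each count of Col1a1. Ajcl Day 5 libraries held 22.1 (replicate 1, left out), 29.2 and 19.0, and ByJcl Day 5 libraries 7.90, 7.07 and 7.24. The Ajcl value of 29.2 lay within the baseline range of both substrains, though below the Ajcl baseline libraries at 31.7 to 37.1. The log2 ratio of Col1a1 to Col1a2 counts was -4.98 ± 0.13 (SD, n = 6) at baseline and -3.56 ± 0.94 (SD, n = 5) at Day 5, a difference of 1.42 (two-sided exact permutation test over libraries, p = 0.00433, where 0.00216 is the smallest possible). The test pooled both substrains. The wide Day 5 spread comes from the substrains, since the ByJcl values lay apart from the Ajcl values. With 3 against 2 or 3 libraries neither substrain alone can reach 0.05. Per kilobase, Col1a1 made up 5.44% ± 0.439 (Ajcl) and 6.12% ± 0.174 (ByJcl) of collagen I transcript at baseline (SD, n = 3 each), 7.69% ± 2.12 in Ajcl (SD, n = 2) and 20.7% ± 0.952 in ByJcl (SD, n = 3) at Day 5. A collagen I trimer of the usual form needs more α1 than α2 chain, so transcript shares are not chain shares.

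**Figure D2:**
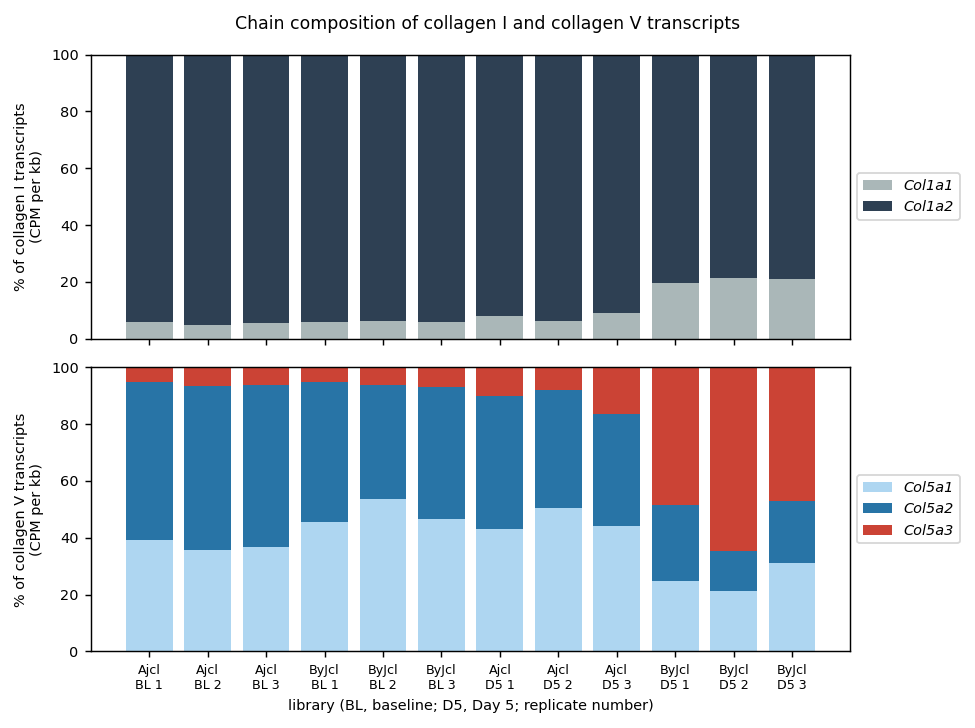
Share of collagen I (top) and collagen V (bottom) transcript taken by each chain gene, in percent of the summed CPM per kb (y axes), in each of the 12 libraries (x axis, BL for baseline, D5 for Day 5, with the replicate number). In ByJcl, mean shares go from 6.12% at baseline to 20.7% at Day 5 for Col1a1 and from 6.17% to 53.5% for Col5a3.

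Col3a1, the only chain of collagen III and a usual partner of collagen I in fibrils, was scarce. Its counts were 164, 259 and 256 in Ajcl and 152, 224 and 170 in ByJcl at baseline, and 200, 130 and 164 in Ajcl (replicate 1 first) and 162, 88 and 86 in ByJcl at Day 5. Its means were 4.93 ± 0.946 and 3.74 ± 0.948 CPM at baseline (SD, n = 3 each), 3.09 ± 0.251 CPM (SD, n = 2) for Ajcl and 2.44 ± 0.888 CPM (SD, n = 3) for ByJcl at Day 5. Groups next to each other in this order overlapped. The Ajcl times did not, as for 25.6% of all genes, although Ajcl Day 5 replicate 1 (4.32 CPM) lay within the baseline range. The log2FC after ADR was -0.66 (SE 0.33, adjusted p = 0.567, edgeR) in Ajcl and -0.58 (SE 0.29, adjusted p = 0.231, edgeR) in ByJcl, and neither passed.

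Col5a3 encodes the α3 chain of collagen V, which has a narrower tissue range than the α1 and α2 chains, and it rose most of the 9 members. Counts at baseline were 120, 182 and 174 in Ajcl and 148, 186 and 176 in ByJcl. At Day 5 they were 206, 196 and 626 in Ajcl (replicate 1 first) and 2804, 3364 and 2376 in ByJcl. The baseline substrains overlapped, the Ajcl Day 5 libraries lay just above baseline except replicate 3, and the ByJcl Day 5 libraries stood far above all others. Means were 3.46 ± 0.569 and 3.47 ± 0.469 CPM at baseline (SD, n = 3 each), 8.42 ± 5.71 CPM in Ajcl (SD, n = 2; 7.10 ± 4.64 CPM with replicate 1, n = 3) and 62.4 ± 12.7 CPM in ByJcl (SD, n = 3) at Day 5. In ByJcl the rise was 18.3-fold (log2FC 4.20, SE 0.36, adjusted p = 0.000263, edgeR), rank 8 by p among the 17002 genes.

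The Ajcl rise in Col5a3 was 2.49-fold (log2FC 1.32, SE 0.35) and did not pass in edgeR (adjusted p = 0.206), though it did in DESeq2 (adjusted p = 0.0176). It rests on Ajcl Day 5 replicate 3, since log2FC was 0.32 without that library and 1.88 (adjusted p = 0.00607, edgeR) without replicate 2. Between substrains at Day 5, Col5a3 was 7.48-fold higher in ByJcl (log2FC 2.90, SE 0.39, adjusted p = 0.0141, edgeR). That call was lost without ByJcl Day 5 replicate 2 (adjusted p = 0.0566, edgeR) and with the Day 5 libraries alone in the fit (adjusted p = 0.283, edgeR). Its size rests on the Ajcl Day 5 libraries, with log2FC of 2.33 without replicate 2 and 3.90 without replicate 3.

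Col5a1 and Col5a2, the α1 and α2 chains of the common form of collagen V, were called in no comparison by edgeR or DESeq2. Col5a1 was at 27.1, 26.4 and 27.2 CPM in Ajcl and 35.5, 42.6 and 27.4 CPM in ByJcl at baseline, and at 23.7, 34.7 and 42.0 CPM in Ajcl (replicate 1 first) and 38.9, 31.6 and 43.0 CPM in ByJcl at Day 5. ByJcl lay above Ajcl at baseline (log2FC 0.40, SE 0.17, adjusted p = 0.583, edgeR), with the nearest libraries at 27.2 and 27.4 CPM. Groups did not overlap there for 14.5% of all genes, and without ByJcl baseline replicate 2 the log2FC was 0.26. The Ajcl change after ADR (log2FC 0.53, SE 0.18, adjusted p = 0.325, edgeR) did not pass, and replicate 1, below the baseline libraries, went against it. Without Ajcl Day 5 replicate 3 its log2FC was 0.34. Col5a2 averaged 52.4 ± 2.96 and 41.7 ± 7.25 CPM at baseline (SD, n = 3 each), 42.4 ± 8.02 CPM (SD, n = 2) for Ajcl and 39.5 ± 13.0 CPM (SD, n = 3) for ByJcl at Day 5, with 33.0 CPM in the left-out Ajcl library. Within collagen V, the share of Col5a3 per kilobase was 6.05% ± 0.781 in Ajcl and 6.17% ± 0.966 in ByJcl at baseline (SD, n = 3 each). It was 12.3% ± 6.01 in Ajcl (SD, n = 2) and 53.5% ± 9.70 in ByJcl (SD, n = 3) at Day 5, when it exceeded Col5a1 (25.7% ± 5.12) and Col5a2 (20.8% ± 6.20) there.

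The collagen VI chains, whose α1, α2 and α3 products join into 1 monomer, were each higher in ByJcl at baseline without passing the test. Col6a1 was at 11.9, 13.7 and 12.1 CPM in Ajcl and 18.4, 16.2 and 14.2 CPM in ByJcl. Col6a2 was at 13.9, 15.1 and 12.4 CPM in Ajcl and 21.7, 16.8 and 16.9 CPM in ByJcl, and Col6a3 at 31.5, 43.3 and 47.1 CPM against 50.8, 96.4 and 52.1 CPM. Each ByJcl library lay above each Ajcl library for all 3, where 14.5% of all genes did not overlap in either direction, with log2FC of 0.39 (Col6a1, adjusted p = 0.629), 0.44 (Col6a2, adjusted p = 0.583) and 0.73 (Col6a3, adjusted p = 0.596, edgeR for each). Without ByJcl baseline replicate 2 the Col6a3 difference was 0.37.

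After ADR, Col6a2 fell in ByJcl by a small step. Its Day 5 levels were 14.3, 9.95 and 10.8 CPM in ByJcl, each below the ByJcl baseline libraries, and 8.46, 11.5 and 12.0 CPM in Ajcl (replicate 1 first), each below the Ajcl baseline libraries. Of all genes, 33.6% did not overlap between times in ByJcl and 25.6% in Ajcl, in either direction. In ByJcl this was 1.55-fold (log2FC -0.64, SE 0.18, adjusted p = 0.0468, edgeR), and in Ajcl log2FC was -0.21 (adjusted p = 0.81, edgeR). The ByJcl call stood at the threshold and was lost with all 12 libraries (adjusted p = 0.0898, edgeR), with ByJcl alone in the fit (0.0896) and without any single library other than ByJcl Day 5 replicate 1, up to an adjusted p of 0.171. Col6a1 averaged 10.7 ± 0.231 CPM (SD, n = 2) for Ajcl and 13.2 ± 4.48 CPM (SD, n = 3) for ByJcl at Day 5 (6.61 CPM in the left-out Ajcl library), with a ByJcl log2FC of -0.26 (adjusted p = 0.484, edgeR) that became -0.59 (adjusted p = 0.0411, edgeR) without ByJcl Day 5 replicate 1. Col6a3, whose large α3 chain carries the domain from which endotrophin is cut, averaged 59.2 ± 6.66 CPM (SD, n = 2) for Ajcl and 53.9 ± 24.9 CPM (SD, n = 3) for ByJcl at Day 5, the ByJcl libraries running from 29.1 to 78.8 CPM and the left-out Ajcl library at 29.3 CPM. At Day 5 its substrain difference turned from -0.10 to 0.17 on the log2 scale with all 12 libraries in the fit. The log2 ratio of Col6a3 to Col6a1 counts differed between times by 0.34, less than its SD of 0.43 (n = 6) at baseline and 0.44 (n = 5) at Day 5 (two-sided exact permutation test, p = 0.225).

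Counted over the members, the comparisons were as follows. At baseline no member was called between substrains against 0.159% of all genes (27 genes, 0.135% higher and 0.0235% lower), 2 members had an unadjusted p below 0.05 in edgeR (1418 genes did) and DESeq2 called none (0.594% of all genes). The groups did not overlap for 5 of 9 members, all higher in ByJcl, against 14.5% of all genes, and the member median log2FC was 0.29 (all genes 0.01). At Day 5, 1 of 9 members (Col5a3) was called between substrains against 0.165% of all genes (0.135% higher and 0.0294% lower in ByJcl), and DESeq2 called 3, adding Col1a1 and Col1a2, against 3.15% of all genes. Of the 9, 3 did not overlap there, against 32.3% of all genes.

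After ADR in Ajcl no member was called against 0.312% of all genes (0.306% higher and 0.00588% lower), 4 had an unadjusted p below 0.05 in edgeR (1666 genes did), and DESeq2 called Col1a2 and Col5a3 against 1.77% of all genes. All 9 members differed between times without overlap in the 2 fitted Day 5 libraries, 3 higher and 6 lower at Day 5, against 25.6% of all genes. With replicate 1 included, Col3a1, Col5a1 and Col6a3 overlapped. In ByJcl 3 of 9 members were called against 10.6% of all genes, Col5a3 higher (5.75% of genes) and Col1a2 and Col6a2 lower (4.83% of genes), and DESeq2 called the same 3 against 15.8%. The same 3 members did not overlap between times, against 33.6% of all genes. Member medians were -0.22 in Ajcl and -0.26 in ByJcl on the log2 scale, with all-gene medians of -0.01 and 0.01.

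**Figure D3:**
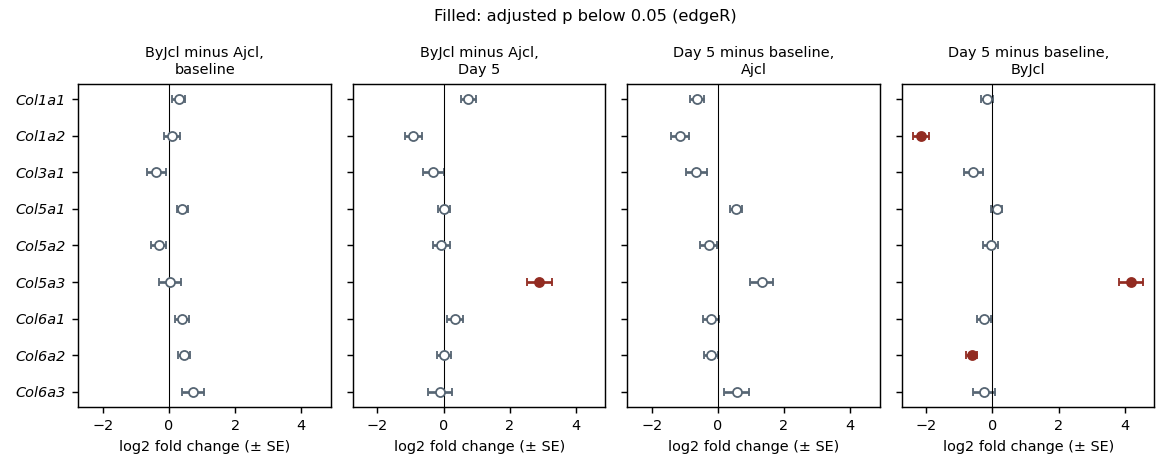
Log2 fold change with its SE (x axes) of each member (y axis) in 4 comparisons, left to right ByJcl minus Ajcl at baseline and at Day 5, and Day 5 minus baseline in Ajcl and in ByJcl, from the edgeR fit over 11 libraries. Filled points have an adjusted p below 0.05, which are Col5a3 at Day 5 (2.90) and Col5a3 (4.20), Col1a2 (-2.16) and Col6a2 (-0.64) in ByJcl after ADR. Comparisons that share a group share its libraries.

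Whether the ADR response differed between substrains was tested as an interaction. edgeR called no gene (0% of those tested), 1363 genes and 2 members, Col5a3 and Col1a2, had an unadjusted p below 0.05, and DESeq2 called 22 genes (0.129%), Col5a3 among them. Col5a3 had the smallest p of all 17002 genes, with a difference of responses of 2.88 on the log2 scale (SE 0.50, adjusted p = 0.62, edgeR). DESeq2 put it at 2.91 (SE 0.47, adjusted p = 1.26e-05), and in edgeR it passed without Ajcl Day 5 replicate 3 (3.89, adjusted p = 0.00708). For Col1a2 the difference was -1.01 (SE 0.34, adjusted p = 0.62, edgeR). Averaged over substrains, Col5a3 (log2FC 2.76, adjusted p = 0.000188) and Col1a2 (log2FC -1.65, adjusted p = 0.00067) were called after ADR against 10.4% of all genes (6.29% higher and 4.15% lower) in edgeR, and Col6a2 was not (log2FC -0.42, adjusted p = 0.0732, though DESeq2 called it, against 14.6% of all genes). Averaged over times, 1 member (Col5a3, log2FC 1.46, adjusted p = 0.0275, edgeR) was called between substrains against 0.565% of all genes (0.394% higher and 0.171% lower), and Col1a1 was not (log2FC 0.52, adjusted p = 0.137, edgeR; DESeq2 adjusted p = 0.0231, against 3.98% of all genes called). That Col5a3 call was lost without any 1 of 7 libraries, namely each Ajcl baseline library, ByJcl baseline replicates 2 and 3 and ByJcl Day 5 replicates 1 and 2, with adjusted p from 0.0544 to 0.0828 in edgeR.

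Podocyte markers moved with Col1a2. The summed level of 10 podocyte markers was 15430 to 20860 CPM in Ajcl and 19410 to 21620 CPM in ByJcl at baseline, 10490 to 15740 CPM in Ajcl and 7402 to 10680 CPM in ByJcl at Day 5, with 9629 CPM in the left-out Ajcl library. In ByJcl 10 of 10 were called lower after ADR, against 4.83% of all genes, with a median log2FC of -1.20, and in Ajcl 0 of 10 were called, against 0.00588% of all genes lower, with a median of -0.42 and 3 at an unadjusted p below 0.05 (edgeR). All 10 had a negative log2FC in both substrains. The part of podocytes in the Col1a2 values was not tested, and in bulk RNA fewer cells of a type and less RNA per cell cannot be told apart.

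**Figure D4:**
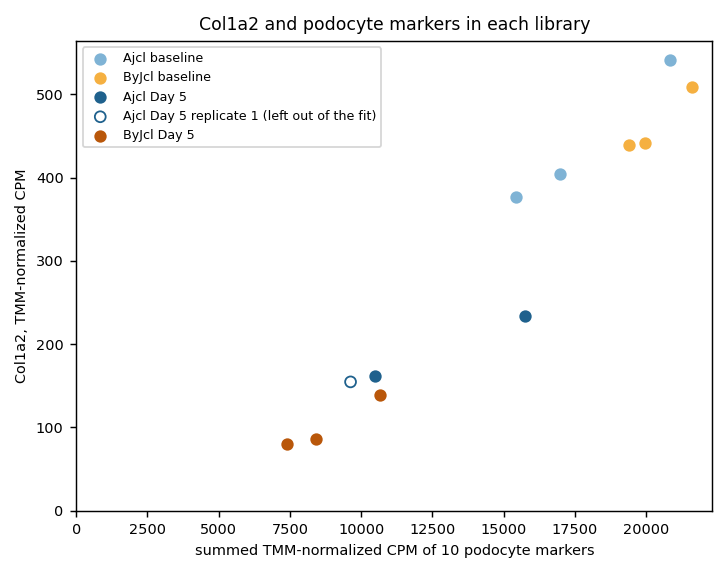
Col1a2 in TMM-normalized CPM (y axis) against the summed TMM-normalized CPM of 10 podocyte markers (x axis) in each of the 12 libraries, coloured by group, with the open circle for Ajcl Day 5 replicate 1. The ByJcl Day 5 libraries sit lowest on the Col1a2 axis, at 80.0 to 139 CPM, and at 7402 to 10680 CPM of podocyte markers, where they overlap the Ajcl Day 5 libraries.

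Markers of other collagen-making cells were set beside the members. Of 10 interstitial fibroblast markers the sum was 987 to 1053 CPM and 1048 to 1199 CPM at baseline (Ajcl, ByJcl), 1159 to 1393 CPM and 1440 to 1593 CPM at Day 5. Pi16, and Cd34 and Ly6a, which endothelial cells also express, carried most of it. Of 8 tested genes 2 were called higher in ByJcl after ADR (Cd34 and Ly6a, named after their values were seen), against 5.75% of all genes. In that comparison 3 of the 8 had a positive and 5 a negative log2FC, with a median of -0.21. Pdgfra, a growth factor receptor, was at 82.0 to 144 CPM and Scara5 at 4.64 to 7.17 CPM over the group means, and neither was called. The remaining fibroblast genes were lower, with Dcn at 1.66 to 2.94 CPM, Clec3b at 0.264 to 0.603 CPM and Dpt at 0.0425 to 0.133 CPM over the group means, Lum at 0 in the fitted Ajcl Day 5 libraries and Mfap5 at 0 in the Ajcl baseline libraries. For 8 mesangial markers, the sum at baseline was 2164 to 2356 CPM in Ajcl and 2301 to 2975 CPM in ByJcl. At Day 5 it was 2394 to 2446 CPM in Ajcl (2196 CPM in the left-out library) and 2368 to 3288 CPM in ByJcl. Between substrains 7 of 8 were higher in ByJcl at both times, with a median log2FC of 0.24 at baseline and 0.21 at Day 5. None was called in the 4 pairwise comparisons. Smooth muscle markers summed to 1358 to 1786 CPM over the groups (1233 CPM in the left-out library), of which Tagln rose in ByJcl after ADR (log2FC 1.31, adjusted p = 0.00163, edgeR) and Mylk fell (log2FC -0.44, adjusted p = 0.0432, edgeR), both named after their values were seen. Tagln was also higher in ByJcl than in Ajcl at Day 5 (log2FC 1.15, adjusted p = 0.0436, edgeR). Glomerular endothelial markers summed to 10260 to 14950 CPM and parietal epithelial markers to 130 to 174 CPM, and immune markers to 32.8 to 69.7 CPM in Ajcl and 69.7 to 131 CPM in ByJcl. After ADR in ByJcl, edgeR called 2 of 8 endothelial markers lower (Ehd3, log2FC -0.81, and Flt1, log2FC -0.54), 1 of 6 parietal markers higher (Cldn1, log2FC 0.77) and 1 lower (Ncam1, log2FC -0.89), and 1 of 8 immune markers higher (Cd68, log2FC 1.17), against 5.75% of all genes higher and 4.83% lower, all named after their values were seen. The part of these cells in the collagen values was not tested.

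Genes that make, bind and clear these collagens were read from 4 lists. Of 26 genes of collagen processing, 3 fell in ByJcl after ADR against 4.83% of all genes lower, and none rose. They were P3h2, a prolyl 3-hydroxylase (log2FC -0.94, SE 0.17, adjusted p = 0.00784, edgeR), P4ha1, a catalytic subunit of prolyl 4-hydroxylase (log2FC -1.47, SE 0.31, adjusted p = 0.0138, edgeR), and Plod1, a lysyl hydroxylase (log2FC -0.62, SE 0.18, adjusted p = 0.0471, edgeR). The list's median was -0.02 against 0.01 for all genes. In the mean over substrains 3 of these genes were called lower and 0 higher, against 4.15% of all genes lower and 6.29% higher. They were P4ha1 (log2FC -1.18, adjusted p = 0.00962), P3h2 (log2FC -0.55, adjusted p = 0.0221) and Serpinh1, the collagen chaperone HSP47 (log2FC -0.83, adjusted p = 0.0312, edgeR for each). P4ha3 was higher in ByJcl in the mean over times (log2FC 2.32, adjusted p = 0.0408, edgeR), from levels of 0.116 to 1.02 CPM.

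Of 21 tested collagen-associated matrix genes, 2 rose and 1 fell in ByJcl after ADR, against 5.75% of all genes higher and 4.83% lower. Ccn2, a matricellular growth factor partner, rose from 2215 to 4628 CPM (log2FC 1.09, adjusted p = 0.0168, edgeR) and Fn1, fibronectin, from 13.2 to 28.6 CPM (log2FC 1.14, adjusted p = 0.022, edgeR). Tnxb, tenascin-X, fell from 101 to 43.4 CPM (log2FC -1.19, adjusted p = 0.0348, edgeR). In the mean over substrains 3 were called higher and 1 lower, against 6.29% of all genes higher and 4.15% lower. Those with the smallest adjusted p were Fn1 (log2FC 0.92, adjusted p = 0.0141) and Ccn2 (log2FC 0.81, adjusted p = 0.0153), both higher. Fmod, fibromodulin, a small proteoglycan that binds collagen fibrils, was lower there (log2FC -0.75, adjusted p = 0.0168, edgeR for each).

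Of 22 receptors and turnover genes, 5 rose and 1 fell in ByJcl after ADR, against the same shares of all genes. The 3 with the smallest adjusted p were Itgb1, the β1 subunit of collagen-binding integrins (log2FC 0.67, adjusted p = 0.00999, edgeR), Timp1, an inhibitor of matrix metalloproteinases (log2FC 2.47, adjusted p = 0.0134, edgeR), and Ddr1, a collagen receptor tyrosine kinase (log2FC 0.56, adjusted p = 0.0213, edgeR). Of 20 regulators of collagen genes, Runx1 (log2FC 1.62, adjusted p = 0.0141, edgeR) and Cebpb (log2FC 1.18, adjusted p = 0.027, edgeR), both transcription factors, rose in ByJcl. In the mean over substrains 4 of the 22 receptor and turnover genes were called higher and 0 lower. Ddr1 (log2FC 0.46, adjusted p = 0.0124), Timp1 (1.70, 0.0161) and Itgb1 (0.42, 0.0188) had the smallest adjusted p. Of the 20 regulators Runx1 (1.35, 0.00795) and Cebpb (1.04, 0.0122, edgeR for each) were called higher and 0 lower, against 6.29% of all genes higher and 4.15% lower. No gene of the 4 lists was called in Ajcl after ADR, between substrains at either time or in the interaction in edgeR, where the shares of all genes called were 0.312%, 0.159%, 0.165% and 0%. The smallest p of each list in Ajcl belonged to Adamts14 (log2FC 1.50), Col6a4, Mmp14 (log2FC 0.49) and Runx1 (log2FC 1.08), with adjusted p between 0.248 and 0.394 in edgeR. Col6a4, at 0.0142 CPM in Ajcl at baseline and 0.264 CPM at Day 5, had too few counts for a fold.

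Across the 12 libraries, which share the groups, members differed in how alike their patterns were. The Pearson correlation of log2(CPM + 0.5) was 0.91 between Col1a1 and Col6a1, 0.89 between Col6a1 and Col6a2, 0.42 between Col1a1 and Col1a2 and -0.87 between Col1a2 and Col5a3. These values describe 12 points that fall into 4 groups and carry no test. Outside the members, Igf2 (0.94), Rps6kc1 (0.93) and H19 (0.92) were most like Col1a1. Unc5a (0.90), Ccdc191 (0.88) and Lrp3 (0.87) were most like Col3a1, and Adcy7 (0.93) and Usp13 (0.93) were among those most like Col6a1. Col1a2 was matched by Sema3g, Shisal1 and Myl3 (0.99 each) and Col5a3 by Mmp10, Rasgrf1 and Crct1 (0.99 each), a look added after the values of both members were seen.

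Genes around Col5a3 were read as well. Of 8 protein-coding genes within 100000 bases, 7 were tested and none of them was called higher in ByJcl after ADR, where 5.75% of all genes were higher and 4.83% lower. Angptl6 (log2FC -1.38, adjusted p = 0.0268, edgeR) and Olfm2 (log2FC -1.61, adjusted p = 0.0212, edgeR) were lower there. Both were scarce, with ByJcl means of 1.83 and 0.689 CPM for Angptl6 and 2.35 and 0.751 CPM for Olfm2 (baseline, Day 5). Casd1, 59104 bases from Col1a2, stayed at 53.5 and 53.7 CPM in ByJcl at baseline and Day 5.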

How the data were processed

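Glomeruli were isolated by perfusion with magnetic beads and collagenase digestion, and poly(A)-selected, strand-specific libraries were sequenced as paired-end reads. Per the labels and the study's methods, the authors used Trimmomatic for trimming, STAR for alignment to GRCm39 and featureCounts for counting. Their deposited counts are raw, 1 value per gene symbol and library, without normalization or pooling. The gene annotation and the strand setting of the counting are not given in the sources used here. Between 77.1% and 82.9% of counts from 1 to 49 were even numbers in each library. Whether both reads of a pair were counted is not given in the sources used here, and if they were, a fragment would add 2 to a count.

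Libraries were grouped by the substrain and treatment of their labels, and no column was left unused. The labels put all 12 libraries in batch 1, so no batch could be compared. Counts were analysed in R 4.3.3 with edgeR 4.0.16. TMM scaling, filterByExpr by group and 1 quasi-likelihood model with a coefficient per group were used over 11 libraries, without Ajcl Day 5 replicate 1 (common dispersion 0.0521, residual and prior degrees of freedom 7 and 4.1). The groups share this estimate of spread, and an arm of 2 libraries is assumed to vary like the others. In this model 7 comparisons were tested, with Benjamini-Hochberg adjustment over the 17002 genes and calls below 0.05. Chain ratios were compared by exact permutation. CPM levels come from TMM factors over the 12 libraries. Alternatives were DESeq2 1.42.0, RLE factors, other filters, all 12 libraries, only the groups compared, a replicate block and leaving out each library. The code was tested on simulated data. Figures were drawn with Python 3.11.15 and matplotlib 3.10.9.

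The members and gene lists were chosen with earlier results of these data known. All members were named. Of each pathway list at most 3 called genes per comparison were named, those with the smallest adjusted p. With none called, the gene with the smallest was named for Ajcl after ADR. Those of the other comparisons without a call are not reported here. Marker lists were given by their summed level, and the genes most like Col1a1, Col3a1 and Col6a1 by Pearson correlation, 3 each, of which 1 is not reported here. Replicates of a group differed beyond sampling noise (chi-square per degree of freedom 44.6 to 271 over 12 pairs), so no library was counted as a copy.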

Additional observations from a re-analysis of the deposited data

Results flagged for a closer look

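The response of Col5a3 to ADR differed between the substrains when the difference itself was tested with DESeq2, where the interaction on the log2 scale was 2.91 (SE 0.47, adjusted p = 1.26e-05). Col5a3 was higher at Day 5 in 3 of 3 ByJcl libraries and in each of the fitted Ajcl libraries than in the baseline libraries of the same substrain. In edgeR the same difference was 2.88 and its adjusted p was 0.62, over alternatives from 1.26e-05 to 0.897. Ajcl Day 5 replicate 3 lay above its fellows, with 626 counts of Col5a3 against 206 and 196.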

How the results depend on the processing

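For Col5a3 in ByJcl after ADR, log2FC stayed between 4.03 and 4.35 with an adjusted p of at most 0.00444, and for Col1a2 between -2.47 and -2.01 with at most 0.00828, so both calls held in each alternative. Scaling by RLE shifted the all-gene median by at most 0.0231 (log2). The number of libraries limits what can be called, and with 3 against 2 or 3 libraries members with small changes may be missed. The cause of the changes below was not tested.

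Counts of all genes called that moved by over 1.5 times were as follows. DESeq2 called 101 at baseline between substrains (edgeR 27), 535 at Day 5 (28), 301 in Ajcl after ADR (53), 22 in the interaction (0) and 677 in the mean over times (96). Without a filter on low counts, 56 were called at Day 5 and 99 in Ajcl. With all 12 libraries, 72 were called at Day 5 and 1197 in ByJcl after ADR (1800). With only the groups compared, 15 were called at baseline, 6 at Day 5 and 33 in Ajcl.

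Members called by DESeq2 were 3 at Day 5, 2 in Ajcl, 1 in the interaction and 2 in the mean over times, and with only the groups compared 0 at Day 5. Whether the replicate numbers pair the samples could not be decided. Where 2 libraries shared a number, the correlation of their deviations ran from -0.357 to 0.507 over 15 pairs. Pairs with different numbers were not set beside these values. With a replicate block, 26 genes were called in Ajcl after ADR, and in the mean over times 0 members, since Col5a3 had log2FC 1.52 and an adjusted p of 0.0603 (edgeR).

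Leaving out each library in turn gave 12 to 29 genes at baseline, 9 to 218 at Day 5, 11 to 180 in Ajcl, 680 to 2056 in ByJcl, 0 to 5 in the interaction, 531 to 1816 in the mean over substrains and 34 to 280 in the mean over times. Members called ranged from 0 to 0, 0 to 1, 0 to 1, 2 to 4, 0 to 1, 2 to 6 and 0 to 1 in the same order. The 2 fitted Ajcl Day 5 libraries set several of these ends, with 9 and 218 genes at Day 5 without replicate 2 and without replicate 3, and 180 and 11 in Ajcl. Without ByJcl Day 5 replicate 1, the 6 members called in the mean over substrains included Col1a1 (log2FC -0.54), Col3a1 (-0.80), Col6a1 (-0.41) and Col6a2 (-0.52). The difference in the log2 ratio of Col1a1 to Col1a2 ranged from 1.24 to 1.75 without single libraries and was 1.27 over 12 libraries, and that of Col6a3 to Col6a1 ranged from 0.23 to 0.52 and was 0.34.

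Direction turned for 14 of the 63 log2 differences of the members (9 members in 7 comparisons) under at least 1 alternative, 42 values in all. None of the 14 passed the threshold in edgeR and their sizes were at most 0.34, so no direction is given to them. With all 12 libraries, the baseline difference of Col5a3 turned from 0.021 to -0.0067, the Day 5 differences of Col5a2 from -0.071 to 0.044 and of Col6a3 from -0.10 to 0.17, and the interactions of Col3a1 from 0.075 to -0.070 and of Col6a1 from -0.048 to 0.18. With only the groups compared, Col5a3 at baseline was -0.0065. At Day 5 Col5a1 turned from 0.0046 to -0.0058 without a filter and to -0.016 with the replicate block, and Col6a2 from 0.017 to -0.10 with the block. Leaving out each library gave -0.14 to 0.12 for Col5a3 and -0.041 to 0.28 for Col1a2 at baseline. At Day 5 it gave -0.15 to 0.19 for Col5a1, -0.38 to 0.18 for Col5a2, -0.52 to 0.20 for Col6a3, -0.18 to 0.12 for Col6a2 and -0.0052 to 0.49 for Col6a1. In ByJcl after ADR it gave -0.34 to 0.16 for Col5a2, -0.66 to 0.086 for Col6a3 and -0.020 to 0.28 for Col5a1. In the interaction it gave -0.26 to 0.29 for Col3a1, -0.36 to 0.13 for Col6a1 and -0.038 to 0.50 for Col5a2, and in the mean over substrains -0.058 to 0.32 for Col6a3.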
